A study of Mus musculus with 7 samples.

Results

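Brain endothelial cells line the blood vessels of the brain, and their nuclei made up 432 of the 58169 barcodes that passed the filters (of 58286 in all) in 7 single-nucleus RNA libraries of mouse brain. They were chosen by measured values, that is, by the transcripts found in each nucleus. A nucleus was taken when it had at least 300 genes, under 5% of its transcript counts (UMIs, unique molecular identifiers) from mitochondrial genes and fewer than 3 UMIs of the neuronal genes Rbfox3 and Snap25 together. It also needed at least 3 detected of the 9 genes Flt1, Cldn5, Mecom, Ptprb, Slco1a4, Adgrl4, Cyyr1, Abcb1a and Tek, with at least 25 UMIs of them per 10000.

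The libraries compared 5xFAD +/- mice, which carry human familial Alzheimer's disease transgenes and form amyloid, after injection of a control AAV (3 libraries) or of an AAV for ANGPT2 (4 libraries). Both groups had the same genotype, were injected retro-orbitally at 4 months and were collected at 6 months, 2 months later. Nuclear RNA came from fresh-frozen tissue of subcortex, thalamus and hippocampus, so endothelial nuclei of these regions are mixed in each library. The labels also give sex and batch. Each group has 1 male and 1 female library in batch 1, while in batch 2 the control group has a male only and the ANGPT2 group both sexes. The promoter and capsid of the vector, the species of its ANGPT2 sequence and the number of mice behind each library are not given in the sources used here. Differences between groups are therefore measured against the spread between libraries, whether that spread is biological or technical.

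Endothelial cells of the brain seal the gaps between them with tight junctions, keep vesicle traffic across the cell low and carry dedicated transporters, which together form the blood-brain barrier. Angiopoietin-1, made largely by cells around the vessel, activates the endothelial receptor encoded by Tek, and angiopoietin-2, which endothelial cells themselves can release, competes for the same receptor. When the receptor is active, its signalling keeps the transcription factor Foxo1 out of the nucleus, and the phosphatase encoded by Ptprb (VE-PTP) removes phosphate from the receptor.

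The 9 selecting genes span these roles. Tek and Ptprb belong to the angiopoietin pathway, Flt1 encodes a VEGF receptor, Cldn5 the main claudin of the tight junction, Abcb1a the efflux pump P-glycoprotein, Slco1a4 an organic anion transporter, Mecom a transcription factor and Adgrl4 an adhesion receptor. Members of the ETS family, which bind a GGAA core, and forkhead factors such as Foxo1 are known regulators of endothelial genes, so the bases before the transcription start are shown for 4 of the 9: 2 with and 2 without the letters searched. RefSeq (GRCm38.p6) gave 9 promoters of 8 of these genes and none for Ptprb. Each of the following lines is the 250 bases before the start, 5′ to 3′ on the gene's strand, and capitals mark AGGAAG on either strand, the ETS letters searched. TAAACA, the forkhead letters, was searched on both strands as well and is in none of these 4. The positions are chr5:147726012-147726261 (minus strand) for Flt1, chr3:151437632-151437881 (plus) for Adgrl4, chr16:18776597-18776846 (plus) for Cldn5 and chr4:94739039-94739288 (plus) for Tek.
Flt1: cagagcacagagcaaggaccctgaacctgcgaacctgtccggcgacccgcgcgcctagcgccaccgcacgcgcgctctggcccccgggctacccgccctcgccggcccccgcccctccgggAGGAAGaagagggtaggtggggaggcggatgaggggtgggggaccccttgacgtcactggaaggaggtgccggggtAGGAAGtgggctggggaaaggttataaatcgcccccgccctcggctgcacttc
Adgrl4: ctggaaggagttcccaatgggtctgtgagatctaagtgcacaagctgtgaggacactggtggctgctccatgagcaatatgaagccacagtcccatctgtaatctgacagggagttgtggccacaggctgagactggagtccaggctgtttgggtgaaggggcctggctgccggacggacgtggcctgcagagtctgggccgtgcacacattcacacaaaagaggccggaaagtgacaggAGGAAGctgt
Cldn5: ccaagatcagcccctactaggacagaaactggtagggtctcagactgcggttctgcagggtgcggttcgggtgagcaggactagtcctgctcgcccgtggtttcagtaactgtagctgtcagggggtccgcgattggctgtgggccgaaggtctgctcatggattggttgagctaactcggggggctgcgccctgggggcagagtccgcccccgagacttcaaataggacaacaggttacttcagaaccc
Tek: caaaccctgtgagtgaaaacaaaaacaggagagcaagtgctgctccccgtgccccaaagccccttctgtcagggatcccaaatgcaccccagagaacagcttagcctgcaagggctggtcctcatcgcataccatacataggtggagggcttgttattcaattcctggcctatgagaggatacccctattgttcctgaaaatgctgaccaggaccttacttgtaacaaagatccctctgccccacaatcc
AGGAAG was in 5 of the 9 promoters (55.6%), against 29.5% of the 32851 promoters of that length in the table. TAAACA was in 3 of the 9 (33.3%), against 12.03%. For Slco1a4, Cyyr1, Abcb1a and a Mecom promoter, the bases after the start did not match the beginning of an annotated transcript. The counts include AGGAAG in Slco1a4, Cyyr1 and Abcb1a and TAAACA in Slco1a4 and Abcb1a. A match is a run of letters and not a bound site, and the lack of one in Cldn5 and Tek holds for this window alone.

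The chosen nuclei carried endothelial genes that the rule did not use. Of 27 further endothelial genes, 26 were higher in the members than in all other barcodes in each of the 7 libraries, with a median of 237-fold over the 27 genes (1.43 to 1257-fold). As the rule separated these nuclei, this is a description of them and no test. Sox17, an endothelial transcription factor of arteries and of the barrier, was 1257-fold higher, Ly6c1, a surface antigen of mouse endothelium, 947-fold, Tie1, the partner receptor of Tek, 921-fold, and Pecam1, an endothelial adhesion molecule, 404-fold. Among the 15 genes with the largest fold were also Ctla2a (1427-fold), Tmem252 (1234-fold), Fmo2 (1203-fold), Zfp366 (875-fold) and Pglyrp1 (869-fold). Flt1 had a UMI in 403 of the 432 members (93.3%) and in 0.618% to 2.34% of other barcodes, although the other barcodes were deeper (median 2277 to 8307 UMIs over all passing barcodes, against 811 to 1824 in members). Cldn5 was seen in 142 members (32.9%) against 0.144% to 0.484% of other barcodes, and Tek in 196 (45.4%) against 0.587% to 1.58%.

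The libraries gave 40, 51 and 82 members in the control male of batch 1, female of batch 1 and male of batch 2, and 45, 79, 45 and 90 in the ANGPT2 male and female of batch 1 and male and female of batch 2. Summed over its members, a library held 60101 to 154725 UMIs. Median depth per member was 1525 to 1824 UMIs in batch 1 and 811 to 994 in batch 2, so batch and depth moved together. Near the limits of the rule, 6 members had 25 to 30 marker UMIs per 10000 and 1 barcode failed with 20 to 25. With exactly 3 markers there were 42 members, and 34 barcodes failed with 2 markers at 25 or more per 10000. At most 134 passing barcode sequences were shared by a pair of libraries, and none was a member in both.

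Transcripts of other cell types were present in the members. Of the 432, 190 had at least 3 detected markers of a non-neuronal cell type at 25 or more UMIs per 10000, and 47 also met the corresponding rule for mural cells (pericytes and smooth muscle, which sit on the outside of the vessel). Of these 47, 16 were in the control male and 15 in the ANGPT2 female of batch 2, with 2 to 4 in each other library. Their median depth in batch 2 was 3093 to 4514 UMIs, against 722 to 973 for the remaining members there, and 3 of the 47 were called doublets. Astrocyte markers summed to 1178 to 1584 counts per 1000000 UMIs (CPM) in control members and to 1642 to 2135 CPM in ANGPT2 members, and microglia markers to 508 to 831 and 214 to 330 CPM. For both lists the groups did not overlap in the members. In all other barcodes they overlapped, with 1559 to 2212 CPM of astrocyte markers in controls and 2060 to 2342 CPM with ANGPT2. Microglia markers there summed to 234 to 300 and 178 to 243 CPM. Of the 15 marker lists the only other one without overlap in the members was that of border macrophages. It stood at 11.1 to 33.2 CPM in control and 0 to 6.95 CPM in ANGPT2 members, from few UMIs. Neuronal markers followed batch, with 7006 to 7646 CPM in batch 1 and 3232 to 4096 CPM in batch 2. At least 3 of them, at 25 or more UMIs per 10000, were found in 326 of the 432 members (51.2% to 97.5% of a library's members). Where nuclei marked for another cell type are removed below, they are the 190 given above. Markers of neurons, oligodendrocyte precursors and red blood cells were not used to choose those 190. Markers of choroid plexus reached 1721 and 2540 CPM in the ANGPT2 male and female of batch 1 and 166 to 687 CPM elsewhere, and haemoglobin genes had UMIs in those same 2 libraries alone (246 and 362 CPM). Markers of fibroblasts, lymphocytes and border macrophages had at least 1 UMI in 44, 27 and 4 members and never reached 3 genes in one. The part of these transcripts in the results was not tested beyond the alternatives named.

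**Figure D1:**
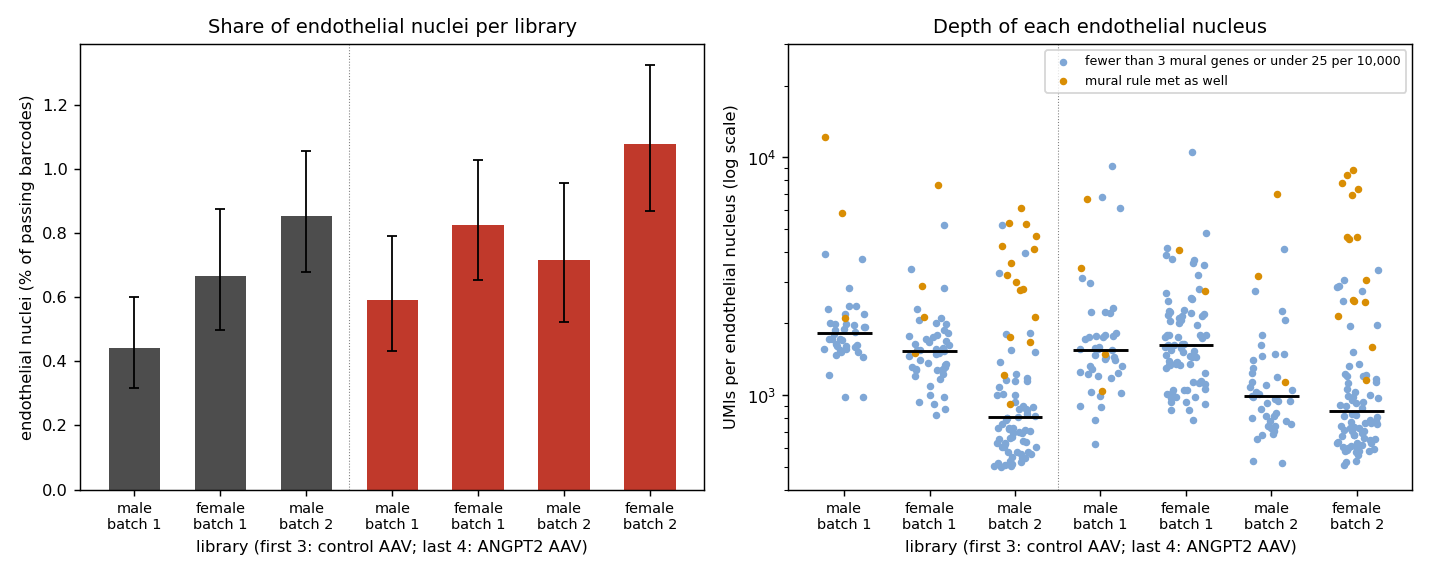
Left, endothelial nuclei as a percentage of passing barcodes in each library, with exact 95% binomial intervals; right, UMIs of each endothelial nucleus on a log scale, with the library median as a bar and nuclei that also met the mural rule in orange. The shares of the 2 groups overlap (0.442% to 0.852% and 0.591% to 1.08%), and batch 2 holds shallower nuclei and 34 of the 47 nuclei that also met the mural rule.

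Whether the ANGPT2 vector changed how many endothelial nuclei were recovered was asked first. They made up 0.442%, 0.666% and 0.852% of passing barcodes in the control libraries, in the order above, and 0.591%, 0.825%, 0.715% and 1.08% in those with ANGPT2. The mean was 0.653% ± 0.205 (SD, n = 3) in controls and 0.802% ± 0.207 (SD, n = 4) with ANGPT2, and the groups overlapped. The difference of 0.149 percentage points was smaller than the spread between libraries (two-sided exact permutation test over 35 assignments, p = 0.4, where the smallest possible p is 0.0286). Within batch 1 it was 0.154 points and within batch 2 0.0443 points. The ratio of endothelial to mural nuclei was 0.952, 1.76 and 4.82 in controls and 0.833, 1.04, 1.55 and 7.5 with ANGPT2. Batch 2 held the 2 highest of these ratios, and both belong to the libraries with most doubly marked nuclei. The log2 ratio differed by -0.17 between groups (exact permutation p = 0.8). It was -0.48 within batch 1 and -0.50 within batch 2.

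The angiopoietin pathway was taken up next, because the vector delivers its ligand. Tek was read in nuclei chosen by the other 8 genes, so that its own level did not select them. It stood at 322, 310 and 638 CPM in controls and at 406, 311, 582 and 688 CPM with ANGPT2. The 3 libraries of batch 2 were higher than all 4 of batch 1, in either group, and the groups overlapped. The log2 change was 0.19 (SE 0.35, edgeR adjusted p = 0.995).

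The receptor's partners and effectors did not pass the threshold either. Ptprb, chosen likewise by the other 8 genes, stood at 1067, 1275 and 1694 CPM in controls and 1212, 1260, 1865 and 2003 CPM with ANGPT2, a log2 change of 0.21 (SE 0.28, edgeR adjusted p = 0.997). Tie1 was at 111, 133 and 190 CPM against 150, 162, 200 and 188 CPM (log2 change 0.23, SE 0.31). Foxo1 was at 156, 99.7 and 155 CPM against 171, 116, 200 and 216 CPM (0.31, SE 0.33). The groups overlapped in Tek and in each of these 3 genes. The edgeR adjusted p was 0.992 for each of Tie1 and Foxo1. Of the 7 pathway genes tested beside the selecting genes, 5 were higher and 2 lower in the ANGPT2 libraries and 0 were called, with a median log2 change of 0.23 against -0.01 over all genes. That median was negative without the ANGPT2 female of batch 2 and also without the nuclei marked for another cell type (lowest value -0.05).

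The ligands were almost absent from endothelial nuclei. Angpt2 had 2, 1 and 2 UMIs in controls and 0, 0, 1 and 6 with ANGPT2, in all 12 UMIs. Angpt1 had 6 UMIs over the 7 libraries. In all other barcodes Angpt2 was at 3.83, 4.12 and 4.03 CPM in controls and at 4.58, 3.61, 2.21 and 2.63 CPM with ANGPT2. For the mouse Angpt2 gene the groups overlapped both in these nuclei and in the rest. These values do not check the labels, since whether the vector's transcript would be counted under mouse Angpt2 is not given in the sources used here.

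**Figure D2:**
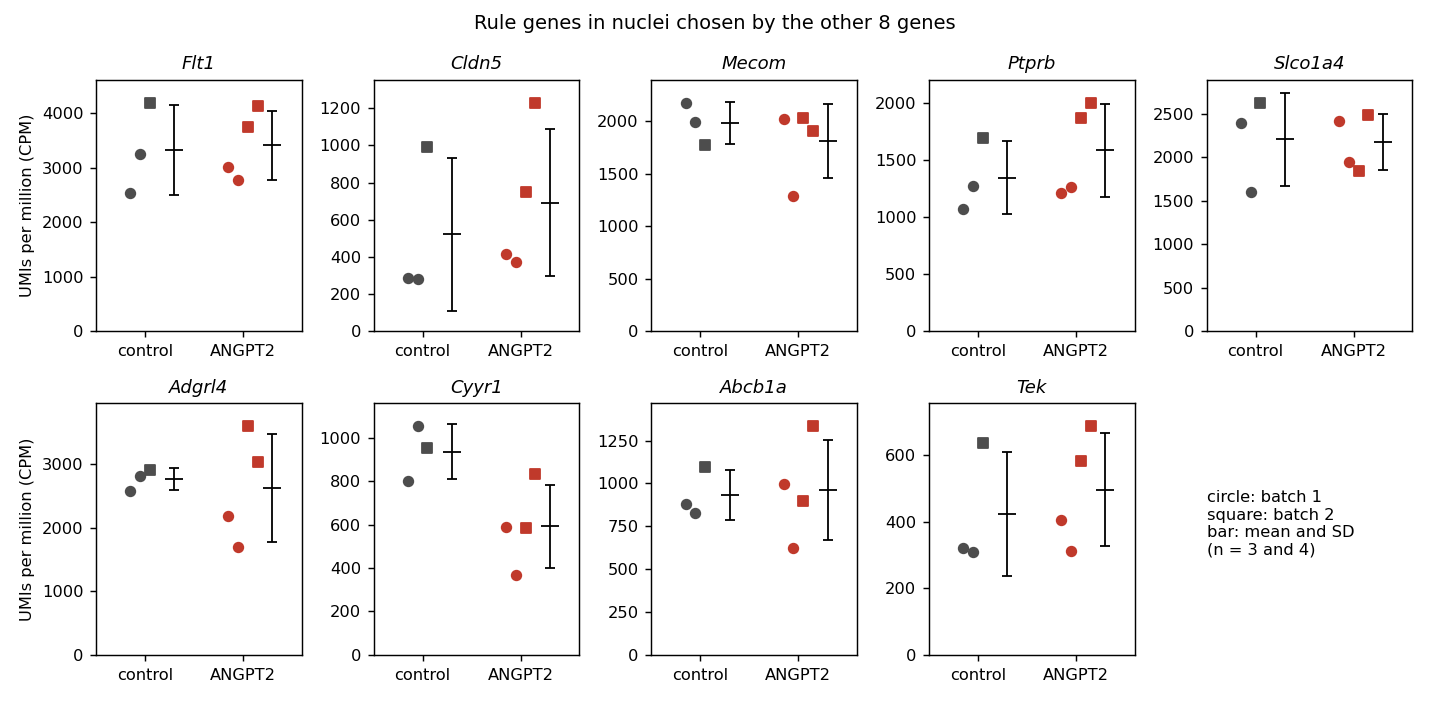
CPM of each of the 9 selecting genes by library, in nuclei chosen by the other 8 genes; points are libraries (circles batch 1, squares batch 2) and bars are mean and SD (n = 3 control, n = 4 ANGPT2). Flt1, Cldn5, Ptprb, Adgrl4 and Tek are higher in the batch 2 libraries than in those of batch 1 in both groups, and Cyyr1 has the largest log2 change of the 9 (-0.68).

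The other selecting genes were read in the same way, each in nuclei chosen without it. Cldn5 stood at 289, 280 and 994 CPM in controls and 417, 372, 749 and 1231 CPM with ANGPT2. Again every library of batch 2 was above every library of batch 1. The log2 change was 0.37 (SE 0.48), from 1.28 without the control male of batch 2 to -0.10 without the ANGPT2 female of batch 2, and edgeR gave an adjusted p of 0.989. The log2 change of Flt1 was 0.02 (SE 0.25), of Abcb1a 0.03 (SE 0.29), of Slco1a4 -0.03 (SE 0.26), of Adgrl4 -0.10 (SE 0.28) and of Mecom -0.15 (SE 0.26). Cyyr1, which encodes a small membrane protein, was at 800, 1052 and 954 CPM in controls and 588, 367, 582 and 832 CPM with ANGPT2. The ANGPT2 female of batch 2 lay above the lowest control and the other 3 ANGPT2 libraries below all controls. Its log2 change of -0.68 (SE 0.29) did not pass the threshold (edgeR adjusted p = 1.00) and kept its sign with each library left out (-0.91 to -0.52).

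Across all genes, no difference between the groups passed the threshold. Of 2446 genes tested in the endothelial nuclei (the 9 selecting genes not counted), edgeR's quasi-likelihood test called 0 at an adjusted p under 0.05 (0%), and DESeq2 called 0. At an unadjusted p under 0.05 edgeR had 85 genes (3.48%) and DESeq2 52. Every ANGPT2 library was above every control in 61 genes (2.49%) and below every control in another 61 (2.49%). Without the filter on low counts, edgeR called 10 of 16287 genes, all higher with ANGPT2: Spag16, Nckap5, Asb4, Nxph1, Hbb-bs, Slc35f1, Npas3, Gpc5, Trpm3 and Htr2c. These 10 were named after their values were seen.

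Those 10 had their UMIs in different libraries. Hbb-bs, a haemoglobin gene, had 20 and 38 UMIs in the ANGPT2 male and female of batch 1 and 0 in the other 5 libraries. Trpm3, an ion channel gene abundant in choroid plexus, had 11, 5 and 18 UMIs in controls and 326, 29, 3 and 88 with ANGPT2, so a single library, the ANGPT2 male of batch 1, held 326 of its 480 UMIs. Htr2c, a serotonin receptor gene of choroid plexus, followed with 3, 4 and 0 against 86, 10, 3 and 56 UMIs. The 2 libraries highest in Trpm3 were also the 2 highest in Htr2c. Asb4 had 3 UMIs in controls, all in batch 2, and 1, 1, 19 and 27 with ANGPT2. It was 190-fold higher in endothelial nuclei than in other barcodes. Hbb-bs was 21.9-fold and Htr2c 1.15-fold higher there, and Trpm3 was lower.

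Nckap5 had the smallest p of the genes tested and did not overlap between groups. It stood at 55.6, 55.4 and 138 CPM in controls and at 267, 226, 366 and 306 CPM with ANGPT2. The lowest ANGPT2 library was above the highest control. The log2 change was 1.71 (SE 0.37, edgeR adjusted p = 0.966), 2.07 within batch 1 and 1.20 within batch 2, from 5 to 44 UMIs a library. With the nuclei marked for another cell type removed it was 1.40. Phactr2, a regulator of phosphatase and actin, was at 88.9, 133 and 146 CPM against 203, 226, 266 and 348 CPM, again with no overlap. Its log2 change was 1.06 (SE 0.32, edgeR adjusted p = 0.992).

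Of the 10 genes with the smallest p on the higher side, 7 were lower in endothelial nuclei than in all other barcodes: Npas3, Kirrel3, Ttll5, Sox2ot, Dgkb, Trpm3 and Gpc5, at 0.201 to 0.825-fold. Over all 2446 genes tested, 699 were lower in endothelial nuclei. Npas3 and Sox2ot are known in neural progenitors and glia, Kirrel3 and Dgkb in neurons, and Gpc5 is one of the astrocyte markers used here. Their log2 changes ran from 1.31 (Ttll5, SE 0.36) to 3.23 (Trpm3, SE 1.03). Trpm3 was at 1.41 when the ANGPT2 male of batch 1 was left out and at 0.20 when at least 4 markers were required. Dgkb, at 1.41, was at 0.85 when the ANGPT2 female of batch 2 was left out and at 0.52 with no neuronal limit. Enpp2, which encodes autotaxin and is abundant in choroid plexus and oligodendrocytes, was at 278, 133 and 146 CPM in controls and at 748, 575, 383 and 229 CPM with ANGPT2, highest in the 2 libraries with most choroid plexus transcripts. These genes did not share a highest library: Npas3 (349 CPM), Kirrel3 (582 CPM) and Ttll5 (183 CPM) were highest in the ANGPT2 male of batch 2, Dgkb (480 CPM) and Gpc5 (674 CPM) in the ANGPT2 female of batch 2, and Sox2ot (226 CPM) in the ANGPT2 female of batch 1. Of the marker lists, astrocyte genes were higher in 4 and lower in 1 of those tested (median log2 change 0.24), oligodendrocyte genes higher in 6 and lower in 1 (0.40), genes of oligodendrocyte precursors higher in 3 of 3 (1.50), and neuronal genes higher in 1 and lower in 9 (-0.18), with 0 called in any of them. The median of oligodendrocyte precursor genes turned negative without the ANGPT2 male of batch 1 and without called doublets (lowest value -0.55). Markers of these precursors summed to 1849 CPM in the members of that library. They summed to 316, 388 and 751 CPM in the other ANGPT2 libraries and to 215 to 587 CPM in controls. The oligodendrocyte median turned in 1 alternative and the neuronal median in 4. The part of these lists in the changes of the named genes was not tested.

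On the lower side, 7 of the 10 genes were more than 4-fold higher in endothelial nuclei than in other barcodes. Over all 2446 genes tested, 625 were at least 4-fold higher there. Rcsd1, an actin capping regulator, stood at 189, 155 and 129 CPM in controls and at 64.1, 38.8, 66.6 and 69.5 CPM with ANGPT2, and it was 11.6-fold higher in endothelial nuclei. All ANGPT2 libraries were below all controls, with a log2 change of -1.43 (SE 0.39, edgeR adjusted p = 0.992). Anxa2, an annexin of the membrane, was at 133, 266 and 146 CPM against 96.2, 90.5, 66.6 and 76.5 CPM (-1.11, SE 0.36). Il10rb, a chain of the interleukin-10 receptor, was at 122, 111 and 164 CPM against 53.4, 58.2, 33.3 and 55.6 CPM (-1.34, SE 0.44). Neither pair of groups overlapped. Dipk2b, 1152-fold higher in endothelial nuclei, was at 178, 277 and 190 CPM against 118, 136, 66.6 and 118 CPM (-0.91, SE 0.32). Socs5 (-1.54, SE 0.42), Rabac1 (-1.13, SE 0.33), Synm (-1.19, SE 0.37), Grik3 (-1.34, SE 0.43), Tnks2 (-0.87, SE 0.29) and Cd200 (-0.91, SE 0.33) complete the 10, and edgeR gave each an adjusted p of 0.992. The 10 rest on 64 to 130 UMIs each over all members.

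The direction of the log2 change differed with how endothelial a gene was, a grouping made after the values were seen. Of 625 tested genes at least 4-fold higher in endothelial nuclei than in other barcodes, 438 (70.1%) were lower with ANGPT2 and 187 higher, with a median log2 change of -0.19. Of 699 genes lower in endothelial nuclei than elsewhere, 454 (64.9%) were higher with ANGPT2, with a median of 0.13. At an unadjusted p under 0.05, 28 of 29 genes of the first group were lower, the exception being Acer2, an alkaline ceramidase gene (log2 change 0.81), and 28 of 34 of the second were higher. Genes share libraries and are not independent, so no test was made of these counts. Without the control male of batch 2 the first group was 55.3% lower and the second 52.1% higher. With the nuclei marked for another cell type removed, the first group was 42.5% lower, with a median of 0.09, over the 233 genes that could then be tested, and the second was 46.7% higher, with a median of -0.02, over 199 genes. With the members that had mural markers removed, 279 of 465 genes of the first group (60%) were lower (median -0.06) and 56.6% of the second were higher (0.08). Summed over all members, the 9 selecting genes made up 10522 CPM in the ANGPT2 female of batch 1, the lowest of the 7 libraries, and 16933 and 17523 CPM in the control male and ANGPT2 female of batch 2.

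**Figure D3:**
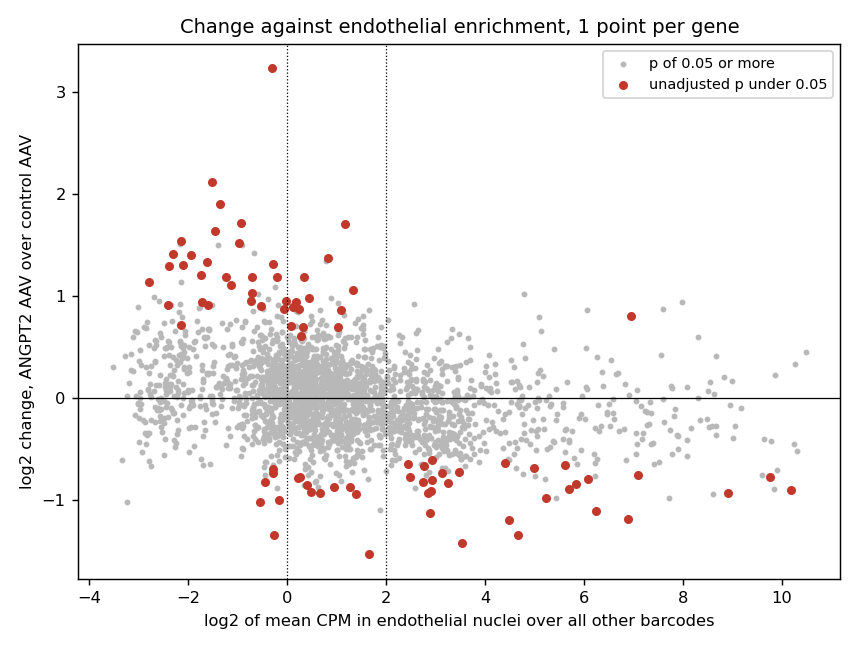
Each point is a gene tested in endothelial nuclei: the x axis is the log2 ratio of its mean CPM in endothelial nuclei to that in all other barcodes (dotted lines at equal level and at 4-fold), and the y axis its log2 change with ANGPT2. Of the red points (unadjusted p under 0.05), 28 of 29 to the right of 4-fold lie below 0 and 28 of 34 to the left of equal level lie above 0.

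Barrier genes were then described by list, each count to be read against the 1211 genes higher and 1235 lower over all genes tested. For genes enriched in endothelial nuclei the nearer background is the group given above. There 438 of 625 genes (70.1%) were lower with ANGPT2, with a median log2 change of -0.19. Whether a list differed from that group was not tested. For caveolae and transcytosis, 1 of 8 tested genes was higher and 7 lower with ANGPT2, with a median log2 change of -0.30. Cav1, the structural protein of caveolae, stood at 178, 210 and 250 CPM in controls and at 150, 123, 99.8 and 118 CPM with ANGPT2. No ANGPT2 library reached the lowest control, and the log2 change was -0.80 (SE 0.30, edgeR adjusted p = 0.992). It was -0.49 within batch 1 and -1.21 within batch 2. Mfsd2a, a lipid transporter that restrains caveolar vesicles at the barrier, was at 100.0, 122 and 259 CPM in controls and 128, 90.5, 66.6 and 48.7 CPM with ANGPT2. Its groups overlapped, and its log2 change of -0.99 (SE 0.43) was -0.02 within batch 1, -2.14 within batch 2 and -0.42 when the control male of batch 2 was left out. Plvap, which forms the diaphragms of leaky capillaries, had 1 UMI in controls and 7 with ANGPT2, 6 of them in the female of batch 1. The list's median stayed negative in each of 20 alternatives (-0.67 to -0.09). For 1 of these, the removal of nuclei marked for another cell type, 1 gene could be tested.

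Transporters and junctions lay closer to the background. Of 21 barrier transporters tested 7 were higher and 14 lower (median log2 change -0.16). Slc2a1, the glucose transporter, was at 1956, 2204 and 1250 CPM in controls and at 1400, 1603, 2363 and 1571 CPM with ANGPT2, a log2 change of -0.08 (SE 0.28). It was -0.46 within batch 1 and 0.57 within batch 2. Tfrc, the transferrin receptor, was at 122, 111 and 172 CPM against 224, 226, 216 and 174 CPM (log2 change 0.60, SE 0.31), with every ANGPT2 library above every control, the last by a small margin. Of 15 junction genes 5 were higher and 10 lower (median -0.14). The log2 change of Pecam1 was -0.36 (SE 0.31), of Cdh5, the cadherin of endothelial adherens junctions, -0.39 (SE 0.37), of Lsr, a protein of tricellular junctions, -0.57 (SE 0.33) and of Pard3, a polarity protein, 0.36 (SE 0.26). The groups overlapped in all 4. The junction median was 0.10 after removal of nuclei marked for another cell type.

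Genes of antigen presentation and interferon response had the lowest median of the lists, -0.65. Of 10 tested genes 9 were lower with ANGPT2 and 1 higher, and 0 were called. Summed over the 43 genes of the list, members stood at 3901 to 8781 CPM in controls and 3193 to 6710 CPM with ANGPT2, so the groups overlapped. In all other barcodes the sum was 195 to 223 CPM in controls and 142 to 186 CPM with ANGPT2, without overlap. Those barcodes pool all other cell types, and which of them carried the difference was not tested. H2-K1, a class I heavy chain, stood at 333, 343 and 439 CPM in controls and at 203, 187, 216 and 341 CPM with ANGPT2. The ANGPT2 female of batch 2 lay between the controls and the other 3 libraries below all of them (log2 change -0.66, SE 0.29, edgeR adjusted p = 0.992). Ifitm3, an interferon-induced membrane protein, was at 233, 388 and 655 CPM against 150, 123, 116 and 452 CPM (-0.99, SE 0.46, from -1.72 to -0.51 with each library left out). H2-D1, another class I chain, had a log2 change of -0.74 (SE 0.35) and B2m, their light chain, of -0.76 (SE 0.53). The list's median stayed negative in all 20 alternatives, from -0.998 to -0.0988, but it was -0.15 when the control male of batch 2 was left out, with 5 of 13 tested genes higher. Microglia, which also express class I genes, had a lower summed marker level in the ANGPT2 members, as given above, and their part in this list was not tested.

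**Figure D4:**
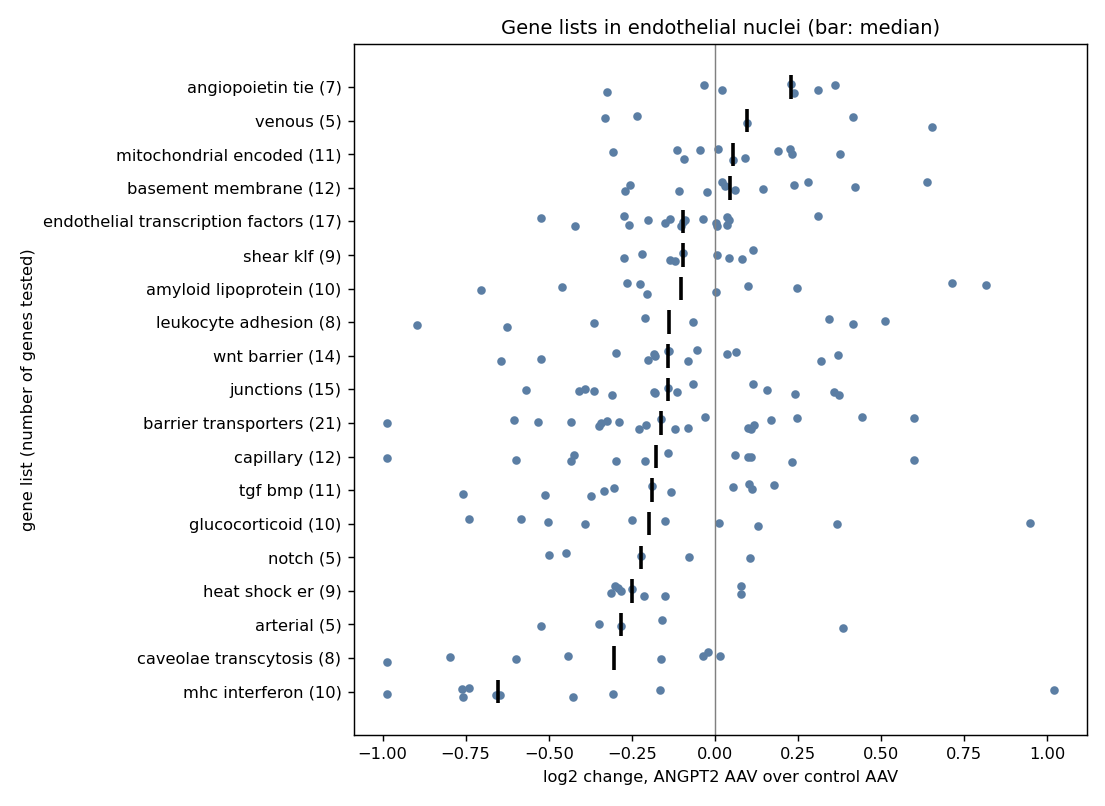
Log2 change with ANGPT2 of each tested gene (points) in 19 gene lists with at least 5 tested genes, with the list's median as a bar and the number of genes tested in parentheses. The lowest medians are those of antigen presentation and interferon (-0.65) and of caveolae and transcytosis (-0.30), and the highest is that of the angiopoietin pathway (0.23).

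In the signalling lists that follow, the groups did not overlap in 1 TGF-beta and BMP gene and 1 glucocorticoid response gene. Over all 2446 genes tested, every ANGPT2 library was above every control in 61 (2.49%) and below every control in another 61 (2.49%). Of 11 TGF-beta and BMP genes 4 were higher and 7 lower (median log2 change -0.19). Acvrl1, an endothelial receptor for BMP ligands, was at 222, 166 and 233 CPM in controls and at 107, 103, 133 and 153 CPM with ANGPT2. No ANGPT2 library reached a control, and the log2 change was -0.76 (SE 0.30, edgeR adjusted p = 0.992), -0.83 within batch 1 and -0.73 within batch 2. Wnt genes of the barrier were higher in 4 and lower in 10 (median -0.14), with the receptor Fzd4 at -0.64 (SE 0.38). Notch genes were higher in 1 and lower in 4 (-0.22), and VEGF genes higher in 2 and lower in 1, with Kdr, the main VEGF receptor, at -0.30 (SE 0.45). Of 10 glucocorticoid response genes 4 were higher and 6 lower (median -0.20), yet Sgk1, a kinase induced by glucocorticoids, was at 88.9, 111 and 103 CPM in controls and 257, 136, 166 and 236 CPM with ANGPT2. All its ANGPT2 libraries exceeded all controls, at a log2 change of 0.95 (SE 0.34, edgeR adjusted p = 0.992). Of the factors that respond to shear flow, Klf2 was at -0.10 (SE 0.27) and Klf4 at -0.27 (SE 0.41), each with overlapping groups.

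**Figure D5:**
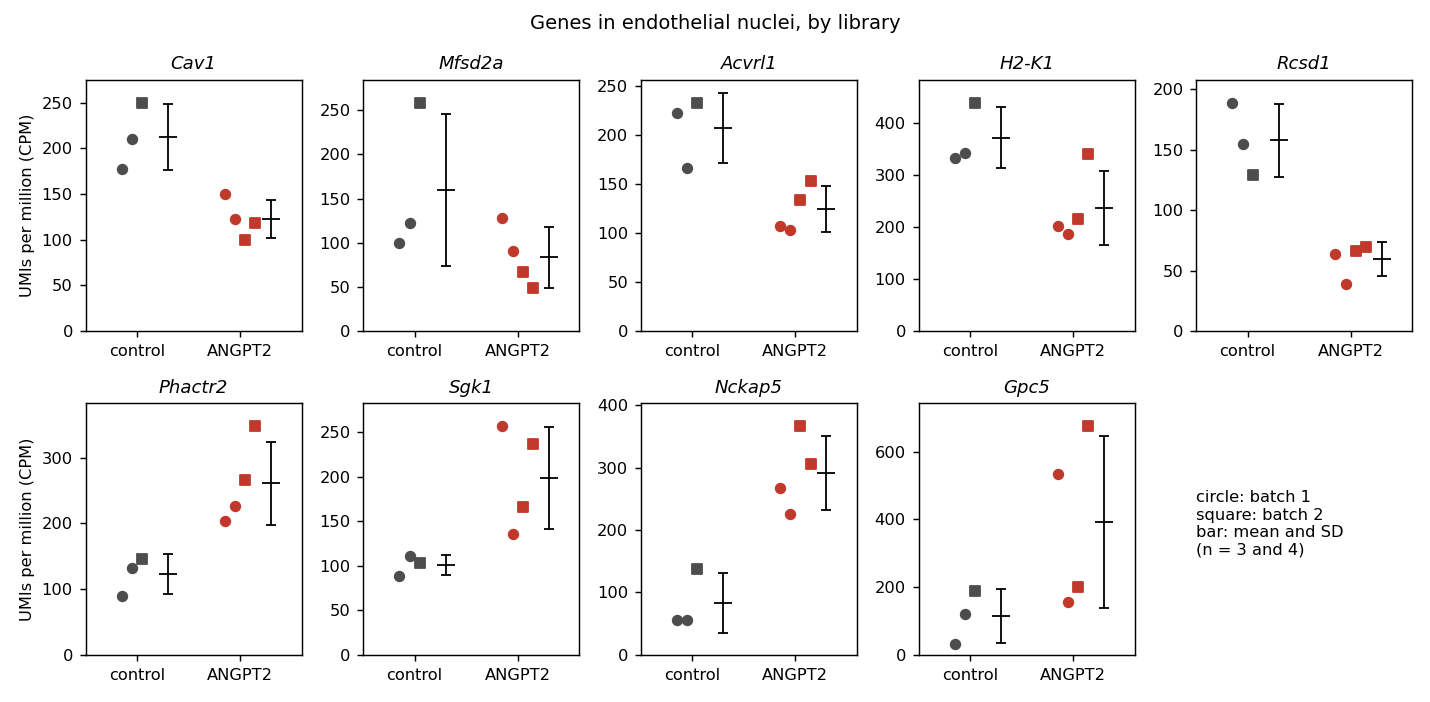
CPM of 9 genes in endothelial nuclei by library (circles batch 1, squares batch 2), with mean and SD as bars (n = 3 control, n = 4 ANGPT2). The groups do not overlap for Cav1, Acvrl1, Rcsd1, Phactr2, Sgk1 and Nckap5 and overlap for Mfsd2a, H2-K1 and Gpc5, and none of the 9 passed the threshold.

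Genes of vessel segments and of vessel activation lay on both sides of 0. Arterial genes were higher in 1 and lower in 4 (median log2 change -0.28), capillary genes higher in 5 and lower in 7 (-0.18) and venous genes higher in 3 and lower in 2 (0.10). Sox17 was at 367, 155 and 198 CPM in controls and at 160, 168, 83.2 and 229 CPM with ANGPT2 (-0.52, SE 0.38), and its log2 change was -0.09 when the control male of batch 1 was left out. Vwf, the von Willebrand factor of larger vessels, was at 111, 133 and 250 CPM against 192, 200, 283 and 243 CPM (0.42, SE 0.33, from 0.22 to 0.88 with each library left out). Both genes overlapped between groups. Of 8 leukocyte adhesion genes 3 were higher and 5 lower (-0.14). Vcam1, the adhesion molecule of inflamed venules, had 1, 0 and 10 UMIs in controls and 14, 0, 11 and 8 with ANGPT2, and Icam1 had 2, 1 and 5 against 2, 3, 2 and 2, too few to be tested. Basement membrane genes were higher in 8 and lower in 4 (0.05), the 4 tested NF-kB pathway genes were higher, with Il1r1 at 0.65 (SE 0.36), and the 10 amyloid and lipoprotein genes were split 5 and 5.

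Whether a change was larger in endothelial than in mural nuclei was tested as a difference of the 2 changes. In 2818 genes edgeR called 1 (0.0355%), Gpc5, a heparan sulphate proteoglycan listed here among the astrocyte markers. In endothelial nuclei its mean was 115 CPM in controls and 391 CPM with ANGPT2, and in mural nuclei 318 and 118 CPM, a difference of changes of 3.70 on the log2 scale (SE 0.65, edgeR adjusted p = 0.000583). In endothelial nuclei alone it was at 33.3, 122 and 190 CPM in controls and 534, 155, 200 and 674 CPM with ANGPT2, and these groups overlapped. In mural nuclei it had 20, 35 and 0 UMIs in the 3 control libraries (267, 687 and 0 CPM) and 9, 5, 3 and 2 UMIs in the 4 ANGPT2 libraries (119, 36.9, 120 and 198 CPM). Its difference of changes was 3.04 to 4.61 with each library left out in turn. It lost its call without the control female of batch 1 (edgeR adjusted p = 0.372, the highest over its 9 alternatives, where the lowest was 2.65e-06) and kept it without each of the other 6 libraries. With the batch as a replicate block edgeR called 4 genes: Gpc5 and Npas3, higher, and Vtn and Nxpe4, lower in endothelial nuclei relative to mural nuclei. Vtn is among the 9 genes that chose the mural nuclei, and no fit chose them without it. Its difference of changes against mural nuclei is therefore a description and no test. Next in order without the block were Npas3 (2.75, SE 0.68, adjusted p = 0.163), Vtn (-1.76, SE 0.48), Kansl1l (-1.92, SE 0.59) and Ptprz1 (2.04, SE 0.65), none of which edgeR called in that fit. Vtn, vitronectin, is a product of pericytes: in endothelial nuclei it was at 1022, 443 and 1215 CPM in controls and 203, 207, 632 and 591 CPM with ANGPT2, and over all libraries it was 118-fold higher there than in other barcodes. Its log2 change in endothelial nuclei was -1.19, and -0.49 with no neuronal limit, and it did not pass the filter on low counts once members with mural markers were removed. The 9 mural rule genes, of which Vtn is one, summed to 2060 to 3818 CPM in control and 1306 to 3254 CPM in ANGPT2 members, and the 4 of them tested were all lower with ANGPT2 (median log2 change -0.55). Their part in the result for Vtn was not tested. Against all other barcodes of the same libraries, 0 of 8364 genes were called by edgeR (0%), with 281 at an unadjusted p under 0.05, and DESeq2 was not run on this comparison. The smallest p belonged to Ly6c1, at 1578, 1972 and 2913 CPM against 1240, 898, 849 and 2322 CPM in endothelial nuclei (difference of changes -1.65, SE 0.39, edgeR adjusted p = 1.00). Vtn, Htr2c, Asb4 and Cx3cr1, a microglial receptor with 16 UMIs in control and 2 in ANGPT2 members, came next. With the batch as a replicate block edgeR called 2 genes in this comparison, both lower in endothelial nuclei: Vtn (-1.95, SE 0.34, adjusted p = 0.0243, over 9 alternatives 0.00941 to 1.00) and Ly6c1 (-1.69, SE 0.32, adjusted p = 0.0430, the lowest over 9 alternatives, where the highest was 1.00).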

How the data were processed

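Single-nucleus RNA of 7 mouse brain libraries was measured by droplet sequencing. The authors deposited raw UMI counts per gene and barcode for each library, made with Cell Ranger 6.1.2 on mm10 (GRCm38), per the submitters' processing notes. The annotation release is not given in the sources used here, and 0 deposited columns of values went unused. Gene names are those of the files. The members and the gene lists were chosen with earlier results of these data known.

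Barcodes with at least 300 genes and under 5% mitochondrial UMIs passed. The rule of the opening paragraph was then applied, and the counts of the members were summed per library. These sums (60101 to 154725 UMIs) limit the precision: the SE of the log2 change was 0.25 to 0.48 even for the selecting genes. The sums were tested with edgeR 4.0.16 in R 4.3.3 (quasi-likelihood test, TMM, treatment as the only term), after filterByExpr with a minimum count of 10 and a total of 15, with Benjamini-Hochberg adjustment over all genes tested and a threshold of 0.05. CPM values use all UMIs of the members, and log2 changes are ANGPT2 minus control. The 9 selecting genes were read from 9 further fits, each with that gene left out of the rule. A difference of changes is an interaction of treatment and nucleus class with the library as a block. Mural nuclei (259) met the same kind of rule with Pdgfrb, Rgs5, Atp13a5, Abcc9, Kcnj8, Notch3, Cspg4, Vtn and Myh11 and were no members. Shares and ratios were compared with two-sided exact permutation tests over libraries, and their 95% intervals are exact binomial ones that cover counting error only. The edgeR scripts were tested on simulated data. Python 3.11.15, scanpy 1.11.5, scipy 1.17.1, numpy 2.4.6 and matplotlib 3.10.9 were also used.

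Genes named are the selecting genes, the 10 with the smallest p in each direction (predicted genes, Xist, Tsix and Y-linked genes left out, other genes of the X chromosome kept), the 2 with the smallest p of a list, a fixed set of vascular genes, the 15 with the largest fold over other barcodes and the 5 leading genes of each interaction. Not all of them are described, and exceptions are stated.

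The labels give a batch for each library, and the replicate block is this batch. Deviations from the group means correlated at 0.09 to 0.35 between libraries of the same batch and different groups (5 of 6 pairs above 0.1) and at -0.30 to -0.07 between batches. As each group was centred on its own mean, positive values within a batch bring negative ones between batches, so the latter are no separate evidence. Alternatives were DESeq2 1.42.0 and its size factors, no filter on low counts, batch as a replicate block, sex as a term, each library left out, other marker thresholds, no neuronal limit, thinning to 800 UMIs, and removal of doublets (called with Scrublet, kept otherwise), of members with markers of another type, or of members with mural markers. The last was added after seeing the data.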

Additional observations from a re-analysis of the deposited data

Results flagged for a closer look

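In 77 groups of 4 ANGPT2 libraries examined, 3 values stood apart from the other 3 libraries by Dixon's criterion, where chance gives about 1 in 20 groups (3.9 in all). The ratio of endothelial to mural nuclei was 7.5 in the ANGPT2 female of batch 2 and 0.833 to 1.55 in the other ANGPT2 libraries. This library also held 15 of the 47 members with mural markers. Trpm3 was at 3484 CPM in the ANGPT2 male of batch 1 and at 49.9 to 612 CPM in the other 3. Choroid plexus markers summed to 1721 CPM in that library's members, but the 2 sums did not rise together. In the ANGPT2 female of batch 1 the markers summed to 2540 CPM, with 29 UMIs of Trpm3. In the ANGPT2 female of batch 2 they summed to 549 CPM, with 88 UMIs of Trpm3. Ifitm3 was at 452 CPM in the ANGPT2 female of batch 2 and at 116 to 150 CPM in the other 3, and the control male of the same batch had the highest level of all (655 CPM).

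The log2 change of Gpc5 was higher in endothelial than in mural nuclei by 3.70 (edgeR adjusted p = 0.000583 for the difference itself).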

How the results depend on the processing

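The share of endothelial nuclei kept its direction in all 17 alternatives, with a difference of 0.0431 to 0.248 percentage points when each library was left out and of 0.0992 points with permutation within batch (replicate block, exact permutation p = 0.556). The log2 ratio of endothelial to mural nuclei turned to 0.0244 without nuclei marked for another cell type and to 0.10 with barcodes thinned to 800 UMIs, and ran from -0.86 to 0.46 over the libraries left out. In the endothelial nuclei edgeR called 0 genes in 19 of 20 alternatives, the replicate block (154 at an unadjusted p under 0.05), DESeq2 and each library left out (0 to 0) included, and 10 without the filter on low counts. For the difference of changes against mural nuclei it called 4 genes with the replicate block (Vtn, which helped to choose the mural nuclei, included) and 0 to 3 with each library left out. Against all other barcodes it called 2 with the replicate block, 4 without the filter and 0 to 0 with each library left out. Of 66 named genes other than the selecting genes, 53 kept their direction in every setting, 25 of these with a log2 change that a left-out library moved over 1.5 times, and 13 turned in at least 1. Of the 9 selecting genes 6 turned. With the replicate block Flt1 was at -0.0435, Abcb1a at -0.0393 and Col4a2 at -0.0433 (-0.12 with sex as well) on the log2 scale. Without called doublets Slco1a4 was at 0.00445. Without members with mural markers Foxo1 was at -0.0647, Klf4 at 0.0526 and Hsp90ab1 at 0.0454. Without nuclei marked for another cell type Hsp90ab1 was at 0.30, Hsp90b1 at 0.11, Zfp366 at 0.26, Klf2 at 0.20 and Slc2a1 at 0.0582. Without the neuronal limit Kdr was at 0.0227, Klf2 at 0.0139 and Slc2a1 at 0.0517. With each library left out, the log2 change ran from -0.14 to 0.24 for Flt1, -0.10 to 1.28 for Cldn5, -0.22 to 0.11 for Slco1a4, -0.27 to 0.0459 for Adgrl4, -0.17 to 0.18 for Abcb1a, -0.0402 to 0.63 for Tek, -0.65 to 0.44 for Kdr, -0.22 to 0.83 for Nrp1, -0.51 to 0.42 for Klf4, -0.0295 to 0.55 for Stmn2, -0.19 to 0.51 for Col4a2, -0.0470 to 0.50 for Il6st, -0.58 to 0.11 for mt-Co2 and -0.28 to 0.0775 for Slc2a1. The cause of these turns was not tested. The replicate block changed no other call.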
